A study of Homo sapiens with 6 samples.

Results

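Chromosome 6 carried 5222 of the 32760 islands in which DNA precipitated with NFATc2 from untreated THP-1 cells was enriched over input, or 15.9% of the list, on 5.59% of the summed chromosome lengths. All islands listed on chromosome 6 were taken as members. They were compared in a first stretch, from the start of the chromosome to 34.2 Mb, with 90 islands, and in the rest of the chromosome, with 5132. The other autosomes held 27461 islands. The members were thus chosen by the authors' island calls, and the chromosome and the boundary at 34.2 Mb were chosen from the number of islands along it, so that the densities, folds and reads given here are descriptions, and no test was made on them.

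THP-1 is a human monocytic line of acute myeloid leukaemia that carries the MLL-AF9 fusion. The experiment had 3 NFATc2 IP libraries, made with an antibody against NFATc2 (also named NFAT1), and 3 Input DNA libraries with no antibody. All were from untreated cells of this 1 line, with 11000000 cells per IP fixed in 1% formaldehyde for 10 min. All libraries entered 1 island call by the authors, so each island has 1 pooled value and the spread between biological replicates is not known. Precipitates with rabbit IgG were not analysed here.

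NFATc2 is a transcription factor that is dephosphorylated by calcineurin when calcium rises in the cell, moves to the nucleus and binds DNA through a Rel homology domain. It was first studied at cytokine genes of T cells. The short arm of chromosome 6 holds the largest cluster of human histone genes, which are expressed as DNA is copied, and next to it the major histocompatibility complex (MHC), with the HLA genes that present antigen, complement genes and the TNF gene. The HLA class II genes, which monocytes use to present antigen, lie towards the centromere end of the MHC. RefSeq (GRCh38.p14) lists 55 protein-coding histone genes and 21 protein-coding HLA genes among the 1049 protein-coding genes of chromosome 6.

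Positions are given in hg19 as listed, counted from 1. The last island of the chromosome ended at 170863600, which is 57621 bp beyond the end of chromosome 6 in GRCh38. No hg19 genome or annotation was used here, so no gene was assigned to an island and no sequence is shown. The histone window (26 to 28 Mb) and the MHC window (28.5 to 33.4 Mb) are approximate positions of these clusters. An island is a run of 200 bp windows that the caller joined, and its log2 fold change (log2FC) compares IP reads with input reads scaled to the IP depth. Reads per island were solved from its fold and p, which the caller derives from a Poisson distribution. Chromosome 6 islands held 33 IP reads or more. The median was 128 IP reads before the boundary, against 185 beyond it and 145 on the other autosomes, and for input 159, against 258 and 192. Intervals given for single islands and shares are exact 95% intervals that cover counting error only. Neighbouring islands and PCR copies are not independent.

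The first 34.2 Mb of chromosome 6 held few NFATc2 islands, and the rest of the chromosome held many. There were 2.63 islands per Mb before the boundary (interval 2.12 to 3.23), 37.6 per Mb beyond it (36.5 to 38.6) and 10.2 per Mb on the other autosomes. The density before the boundary was thus 0.0701 times that of the rest of the chromosome and 0.258 times that of the other autosomes, while the rest stood at 3.68 times the other autosomes. This stretch is 20.0% of the chromosome and held 1.72% of its islands (1.39 to 2.11%). Islands covered 415 kb or 1.21% of the first 34.2 Mb, against 34.9 Mb or 25.5% of the rest and 5.65% of the other autosomes.

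**Figure D1:**
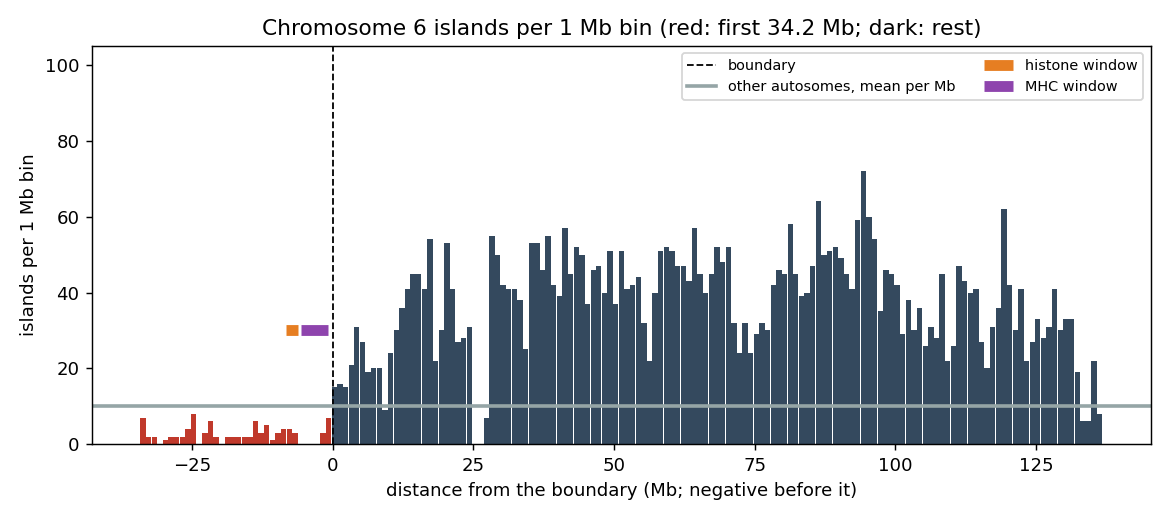
Number of chromosome 6 islands in each 1 Mb bin (y axis) by distance of the bin from the boundary in Mb (x axis), with red bars before the boundary and dark bars beyond it. The grey line is the mean of the other autosomes (10.2 per Mb). Coloured strips mark the histone and MHC windows. No bin before the boundary holds more than 8 islands, and the highest bar beyond it is at 72.

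In whole bins of 1 Mb, the 34 bins before the boundary held a median of 2 islands, with 8 in the fullest, and 7 of them were empty. The 135 bins beyond it held a median of 41, with quartiles of 29.5 and 47. The 2701 bins of the other autosomes held a median of 6, with quartiles of 1 and 16, and 529 of them were empty. Single bins that were empty or held 1 island were thus not particular to the start of chromosome 6. Around the boundary the number on chromosome 6 grew over several bins, with 3 islands in the bin from 32 Mb, 7 from 33 Mb and 15 from 34 Mb. It was 16 from 35 Mb, 15 from 36 Mb, 21 from 37 Mb and 31 from 38 Mb. The growth was not steady, as the bin from 43 Mb held 9. Within 1 Mb of the boundary there were 7 islands before it and 18 after it, and within 10 Mb there were 24 before and 194 after. A single step in the number of islands, fitted by Poisson likelihood every 100 kb, also fell at 34.2 Mb, which is how such a boundary is found and is no separate evidence for it. The last island before the boundary lay from 33876201 to 33879200, with 98 IP reads, 133 input reads and a log2FC of 0.39 (interval -0.00016 to 0.78). The next, from 34203601 to 34207600, held 134 IP reads, 193 input reads and a log2FC of 0.31 (-0.02 to 0.63). The log2FC of each thus lay within the interval of the other.

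The histone window held 7 islands in 2 Mb, or 3.5 per Mb, where the mean density of the other autosomes would give 20.4 and that of the rest of chromosome 6 would give 75.1. The 26 Mb before it held 2.81 per Mb, so that the window was not sparser than the sequence before it. None of these 7 islands was above a log2FC of 1. Of all islands in the list 1.58% were, so that none among 7 does not show a lack of peaks. This share is the background for the peak counts given further on. The strongest, from 26102801 to 26105600, had 189 IP reads and 173 input reads, with a log2FC of 0.96 (interval 0.65 to 1.27). The island next to it, from 26155601 to 26158000, was at 0.90 (0.44 to 1.36), with 84 IP reads and 80 input reads. The other islands of the window were at 0.39 to 0.72. Near the end of the window 3 islands stood close together, from 27825001 to 27829800 (0.39), 27899401 to 27904400 (0.64) and 27940001 to 27944800 (0.72).

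After that last island no island was listed until 32537801. This stretch of 4.59 Mb was the longest without an island on chromosome 6, longer than the 3.11 Mb around the centromere. It takes in most of the MHC window, which held 3 islands in 4.9 Mb, or 0.612 per Mb, where the mean density of the other autosomes would give 49.97 and that of the rest of chromosome 6 would give 184. These 3 islands lay together towards the centromere end of the window. The first, from 32537801 to 32542600, had 192 IP reads and 250 input reads, with a log2FC of 0.45 (interval 0.17 to 0.73). A second, from 32556801 to 32560200, was at 0.61 (0.27 to 0.94) with 141 IP reads and 165 input reads. The third, of 2000 bp from 32564801 to 32566800, was at 0.48 (0.06 to 0.90) with 87 IP reads and 111 input reads. Their median of 52.1 input reads per kb was above that of the 90 islands of the stretch (37.4). From the end of the MHC window to the boundary there were 7 islands in 0.8 Mb, or 8.75 per Mb, with log2FC values of 0.31 to 0.44.

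Before the histone window, in 26 Mb, there were 73 islands, or 2.81 per Mb, with log2FC values of 0.23 to 1.51 and a median of 0.54. The first of the chromosome, from 259001 to 261600, had 111 IP reads, 130 input reads and a log2FC of 0.60 (interval 0.23 to 0.98). The fullest bin, from 9 Mb, held 8 islands, and the bin at the very start of the chromosome held 7. The median distance between neighbouring islands was 153300 bp before the boundary, against 10200 bp beyond it and 26000 bp on the other autosomes. Stretches of at least 1 Mb without an island were found 8 times before the boundary and once beyond it, around the centromere. On the 2693 Mb of the other autosomes there were 319 of them, so that such stretches were common elsewhere too. Leaving out the histone and MHC windows left the density before the boundary at 0.0780 times that of the rest, so that the low number was not limited to these clusters.

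In stretches of up to 10 Mb, the number of islands beyond the boundary grew towards the centromere. It was 21.6 per Mb from 34.2 to 40 Mb, 28.9 from 40 to 50 Mb and 32.7 from 50 to 60 Mb. Between 60 and 70 Mb it was 35.2 per Mb, in a stretch that includes part of the 3.11 Mb without an island around the centromere. From 70 to 120 Mb it lay between 37.8 and 47.6 per Mb, with no steady rise. It was highest between 120 and 130 Mb, at 54.3 per Mb, where islands covered 37.3% of the sequence. It was lower again at the end of the long arm, with 24.9 per Mb from 160 to 170 Mb. The fullest single bin was that from 128 Mb, with 72 islands that covered 494 kb. The next were those from 120 Mb (64 islands), 153 Mb (62) and 129 Mb (60). Chromosome 6 held 28 bins with at least 50 islands, all beyond the boundary, while the 2701 bins of the other autosomes held 14 such bins. The median log2FC of the 10 Mb stretches beyond the boundary lay between 0.29 and 0.38, the lowest from 50 to 60 Mb and the highest from 160 to 170 Mb.

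The widest islands lay beyond the boundary. The widest of all, 100600 bp from 57322601 to 57423200, held 7645 IP reads and 13063 input reads. Its log2FC of 0.06 (interval 0.02 to 0.10) was the lowest on the chromosome. The others of the 5 widest were 64600 bp from 56478201, 39400 bp from 85021201, 37000 bp from 38518201 and 35600 bp from 52310201, with log2FC values of 0.06 to 0.14. In the first 34.2 Mb 1 island was wider than 10000 bp, against 894 or 17.4% in the rest and 5.83% on the other autosomes. The median width was 4400 bp before the boundary, 5600 bp beyond it and 4800 bp on the other autosomes.

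Some islands close to the centromere had high input. The island from 57322601 held 130 input reads per kb, and that from 57429001 to 57448800 held 145 input reads and 86.4 IP reads per kb. On the other side, the island from 61904401 to 61921400 held 231 input reads and 158 IP reads per kb, with a log2FC of 0.28 (interval 0.21 to 0.35). For the island from 58758801 to 58780200 (log2FC 0.31) the list gives 50 as a ceiling of both −log10 p and −log10 FDR, so that its reads could not be worked out. Leaving out all islands from 56 to 63 Mb, chosen after the data were seen, left the density ratio at 0.0722 and the difference in median fold at 0.17.

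The few islands of the first 34.2 Mb had higher folds than the many of the rest, but not more IP reads. Their median was 30.7 IP reads per kb, against 33.9 beyond the boundary. The median log2FC was 0.50 before the boundary (quartiles 0.38 and 0.65), against 0.33 beyond it (0.25 and 0.44) and 0.41 on the other autosomes (0.30 and 0.54). Before the boundary 45 of 90 islands were above 0.5, against 854 of 5132 beyond it and 8707 of 27461 on the other autosomes. The median standard error of a single log2FC from counting reads was 0.17 before the boundary and 0.14 beyond it, about as large as the difference between the medians of 0.17. A difference of this size between a pair of single islands would thus be within counting error. Between 4000 and 6000 bp in width, where both parts had many islands, the medians were 0.49 in 41 islands before the boundary, against 0.34 in 1389 beyond it and 0.40 in 10751 on the other autosomes. The order was the same among islands of 2000 to 4000 bp, at 0.61 in 35 islands, against 0.42 in 1359 and 0.50 in 8458, and among those of 6000 to 10000 bp, at 0.35 in 11 islands, against 0.29 in 1364 and 0.33 in 6012. It was not the same among islands of up to 2000 bp, at 0.46 in 2 islands, against 0.66 in 126 and 0.83 in 639. Above 10000 bp the 1 island before the boundary was at 0.26, against 0.23 in 894 and 0.23 in 1601. An FDR below 0.001 was listed for 55 islands before the boundary (61.1%), against 1987 beyond it (38.7%) and 13266 on the other autosomes (48.3%).

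**Figure D2:**
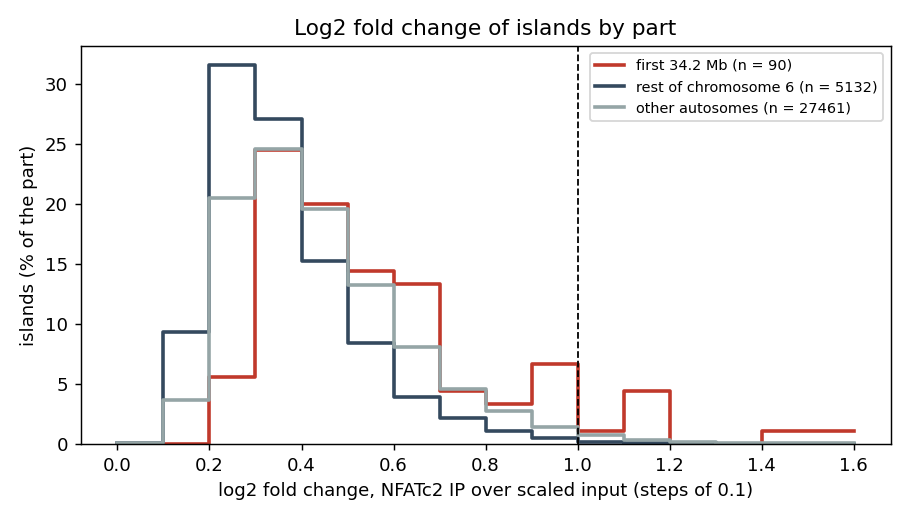
Share of the islands of each part, in percent (y axis), by log2FC of NFATc2 IP over scaled input in steps of 0.1 (x axis), for the first 34.2 Mb of chromosome 6 (red, 90 islands), the rest of chromosome 6 (dark, 5132) and the other autosomes (grey, 27461). The dark line lies furthest to the left, with a median of 0.33, and the red line furthest to the right, with a median of 0.50. The dashed line is the threshold of 1.

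The 2 parts also differed in input. Islands before the boundary held a median of 37.4 input reads per kb (quartiles 32.7 and 42.2), against 47.6 beyond it (43.9 and 51.3) and 41.1 on the other autosomes (37.1 and 45.6). The ratio before the boundary to beyond it was 0.785. The IP reads differed less, with medians of 30.7 per kb before the boundary, 33.9 beyond it and 31.1 on the other autosomes. Among islands of 4000 to 6000 bp the input medians were 35.6, against 46.0 and 39.6. Input is known here only where an island was called, so a difference in DNA copies and a difference in which regions passed the caller cannot be told apart here.

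**Figure D3:**
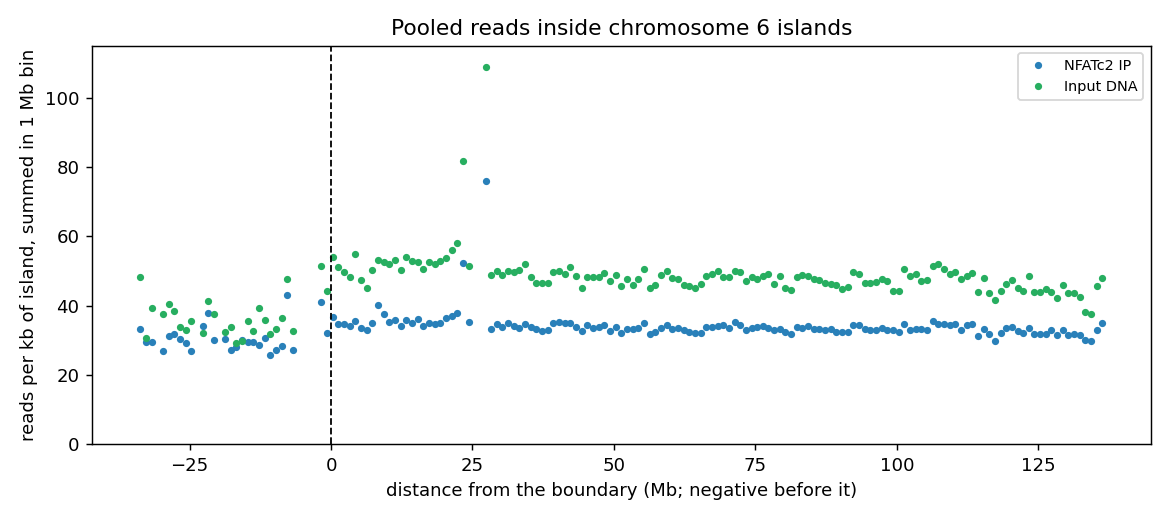
Reads per kb of island, summed over the islands of each 1 Mb bin of chromosome 6 (y axis), for pooled NFATc2 IP (blue) and pooled Input DNA (green), by distance from the boundary in Mb (x axis). Beyond the boundary the input points lie mostly between 40 and 60, above the IP points between 30 and 40. Both rise in the bins from 57 and 61 Mb, near the centromere, where input reaches 81.9 and 109. The bin from 58 Mb leaves out the island whose reads could not be worked out. Before the boundary the input points lie mostly lower and closer to the IP points.

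Input depth sets which folds can pass. For an island of 4000 to 6000 bp with the median input of its part, the lowest log2FC that the caller's formula lets into the list was 0.26 before the boundary (172 input reads), 0.22 beyond it (229) and 0.24 on the other autosomes (196). When only islands at or below the median input of the whole list (42.1 reads per kb) were kept, a choice made after the data were seen, 67 islands were left before the boundary, 815 beyond it and 15495 on the other autosomes. The filter kept 74.4% of the islands before the boundary, 15.9% of those beyond it and 56.4% of those on the other autosomes. The density before the boundary was then 0.329 times that of the rest of the chromosome, which follows from the shares kept. The difference in median log2FC was 0.066. Whether input had a part in the contrasts of density and fold was not tested.

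The contrast in density between the parts was largest with weak islands included and shrank as the fold threshold rose. Above a log2FC of 0.25 there were 2.57 islands per Mb before the boundary, 28.5 beyond it and 9.0 on the other autosomes. Above 0.5 the numbers were 1.32, 6.25 and 3.23 per Mb, and above 0.75 they were 0.497, 1.17 and 0.793 per Mb. The density before the boundary was thus 0.0902, 0.211 and 0.425 times that of the rest at these thresholds. Above 1, the threshold from which an island is called a peak here and in the paper, there were 0.205 peaks per Mb before the boundary (interval 0.0823 to 0.422), against 0.176 beyond it (0.113 to 0.261) and 0.176 on the other autosomes (0.161 to 0.193). The direction had turned, with a ratio of 1.17, but with 7 peaks before the boundary the intervals overlap widely, and a difference in peak density was not detectable at this depth.

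**Figure D4:**
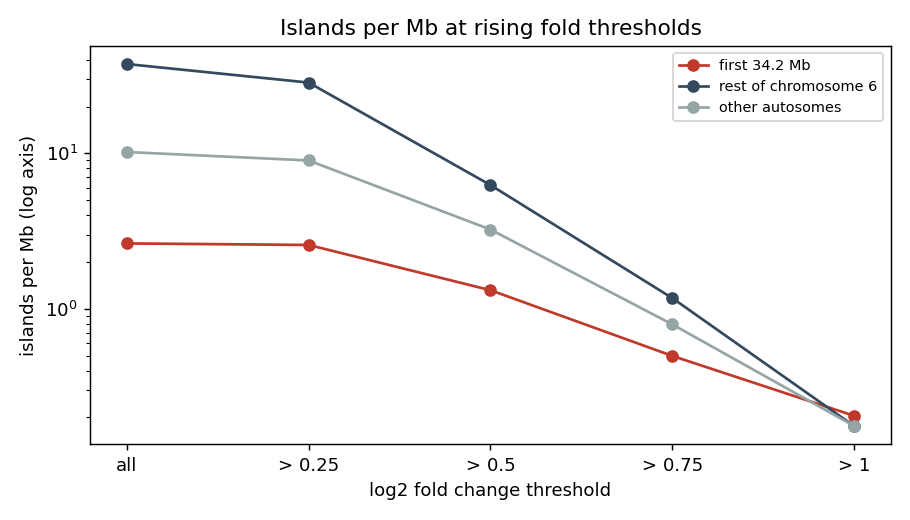
Islands per Mb on a log axis (y axis) at rising thresholds of the log2FC (x axis), for the first 34.2 Mb of chromosome 6 (red), the rest of chromosome 6 (dark) and the other autosomes (grey). The lines start at 2.63, 37.6 and 10.2 per Mb with no threshold and meet above 1, at 0.205, 0.176 and 0.176 per Mb.

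Chromosome 6 had 31 peaks above a log2FC of 1, which is 0.594% of its islands (0.404 to 0.842%), against 1.58% of all islands in the list. Before the boundary 7 of 90 islands were peaks (7.78%, interval 3.18 to 15.4%), and beyond it 24 of 5132 (0.468%, 0.300 to 0.695%), against 1.73% on the other autosomes. As the threshold is on the fold itself, these shares restate the fold distributions above. Just inside the threshold was the island from 123678001 to 123680800 (log2FC 1.0018, 117 IP reads against 104 input reads), and just outside it that from 7283801 to 7286400 (0.9998, 91 against 81).

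The strongest peak of chromosome 6, 800 bp from 109965601 to 109966400, reached a log2FC of 1.55 (interval 0.91 to 2.21), with 56 IP reads and 34 input reads. The second lay before the boundary, from 11251801 to 11254600. It had 101 IP reads and 63 input reads, a log2FC of 1.51 (1.04 to 1.99), and was the only peak of the chromosome whose interval lay wholly above 1. The third, from 91778201 to 91780200, was at 1.43 (0.94 to 1.94) with 88 IP reads against 58 input reads. The fourth was again before the boundary, from 22852001 to 22854800, at 1.41 (0.96 to 1.87) with 103 IP reads against 69. The fifth, from 153171001 to 153173600, was at 1.37 (0.90 to 1.84) with 97 IP reads against 67. Of the 31 peaks, 2 were above a log2FC of 1.5 and 23 were below 1.2, so that most lay close to the threshold, and the counting intervals of all 31 overlap.

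The next 5 peaks were all beyond the boundary. They lay from 36781401 to 36782800 (1.25), 42923201 to 42925400 (1.21), 71438001 to 71439200 (1.21), 130566601 to 130569800 (1.19) and 57722801 to 57724000 (1.18). That from 42923201 stood out by its depth, with 271 IP reads and 208 input reads in 2200 bp, or 123 IP reads and 94.5 input reads per kb.

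**Figure D5:**
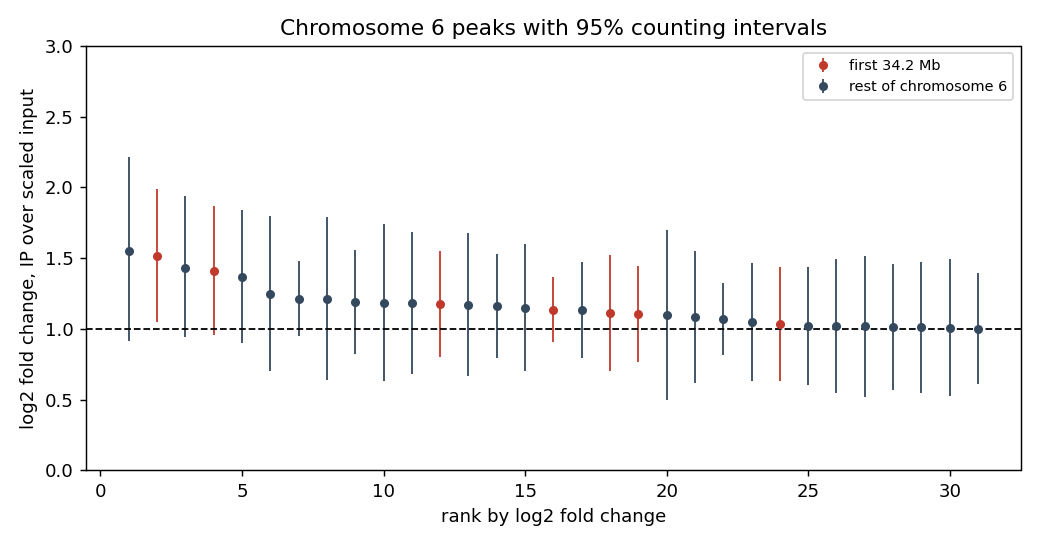
Log2FC of NFATc2 IP over scaled input (y axis) of the 31 chromosome 6 peaks by rank (x axis), each with its 95% counting interval as a vertical line and a dashed line at 1. The 7 peaks of the first 34.2 Mb are red and the 24 of the rest are dark. Red points lie at ranks 2 and 4 and between ranks 12 and 24, and all but 1 of the intervals cross 1.

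None of the 7 islands of the histone window or the 3 of the MHC window was a peak, too few islands to show a lack. All 7 peaks of the first 34.2 Mb lay before the histone window, between 8073001 and 22854800. They were 2800 to 5000 bp wide, with 101 to 350 IP reads and 63 to 284 input reads. By position they began at 8073001 (1.04), 11251801 (1.51), 12511801 (1.13), 17277001 (1.18), 18847201 (1.10), 20294401 (1.11) and 22852001 (1.41), with the log2FC in parentheses. They thus lay apart from each other, as the islands of this stretch did in general. The deepest, from 12511801 to 12516200, held 350 IP reads and 284 input reads, with a log2FC of 1.13 (interval 0.90 to 1.36). Its −log10 FDR of 35.5 was the highest of any chromosome 6 peak. Of the 24 peaks of the rest, 3 lay between the boundary and the centromere and 21 on the long arm. They were 400 to 5000 bp wide, and the 4 peaks of 1000 bp or less were all among them. Input was dense in some of these narrow peaks. The peak from 118320001 to 118320400, 400 bp wide, held 277 IP reads against 235 input reads, or 693 and 588 per kb (log2FC 1.07). Another of 400 bp, from 153603601 to 153604000, held 75 against 66 (1.02). The median input of the 7 peaks before the boundary was 27.2 reads per kb, against 37.9 for the 24 beyond it.

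Among the 22 autosomes, chromosome 6 ranked first by islands per Mb (30.6), followed by chromosomes 13 and 3 (20.3 each). It ranked first by share of sequence covered (20.7%, against 11.7% on chromosome 13 and 10.6% on chromosome 3). It also had the lowest median log2FC (0.33, against 0.37 on chromosome 13 and 0.42 on chromosome 3) and the highest median input inside islands (47.5 reads per kb, against 43.1 on chromosome 13). Chromosomes 1 and 9 came next to it in input and fold without its density. They had 46.6 input reads per kb each and medians of 0.34, with 11.8 and 7.31 islands per Mb. By peaks per Mb chromosome 6 ranked eighth, at 0.181, against 0.339 on chromosome 3, which was first.

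Stretches as sparse as the start of chromosome 6 were not particular to it. Windows of the same length, moved along each of the other 21 autosomes in steps of 100 kb, reached fewer than 90 islands on 10 of them, with a lowest count of 15 on chromosome 12. Windows that hold centromeres and other assembly gaps are included in this count. At the other end, the densest such window of chromosome 6, from 70.5 to 104.7 Mb, held 1565 islands, or 17.4 times the 90 of the start of the chromosome. The densest on any other autosome was on chromosome 13, with 1184.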

How the data were processed

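Tools listed in the submitters' processing notes are SICER 0.0.52, BWA 0.7.17.1, Trimmomatic 0.36.5, ChIPseeker 1.18.0 and SAMtools 1.3.1, with hg19 as the build. The paper names epic2, an implementation of the SICER method, as the caller. The authors pooled all libraries, kept islands at FDR below 0.05 and deposited 1 list with no header. The deposited score equals 100 × log2 fold change without its decimals. The deposited log2 fold change compares IP reads with input reads after scaling, and −log10 of the p-value and of the q-value (FDR) were deposited beside it. The list has no fold filter, and islands in blacklisted regions were not taken out.

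IP and input reads were solved from fold and p, with input scaled by 0.5618 to the IP depth. Input reads came out whole within 0.02 in 32751 of 32760 islands. In the other 9 islands, 1 of them on chromosome 6, −log10 p is at a ceiling of 50 and no reads are given. The method was tested on simulated data. Intervals are exact Clopper-Pearson (shares, folds) or exact Poisson (densities) at 95%. The length of a chromosome was taken to the end of its last island, and islands were placed by their start. Named islands were the 10 with the highest fold, the 5 widest, the 5 with most IP reads, peaks in the histone and MHC windows (there were none) and those beside the boundary. Other islands named, such as those of both windows, were chosen after their values were seen. Members and windows were chosen with earlier results of these data known. Planned gene assignments were not run, as no hg19 annotation was used. Alternatives were other FDR and fold thresholds, boundaries, chromosome lengths and width ranges, covered base pairs and merged islands; 2 were added after the data were seen (low-input islands, and leaving out 56 to 63 Mb). Values were computed with pandas 2.3.3, scipy 1.17.1 and numpy 2.4.6 in Python 3.11.15, and drawn with matplotlib 3.10.9.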

Additional observations from a re-analysis of the deposited data

How the results depend on the processing

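The share of chromosome 6 islands before the boundary (1.72%) was 2.21% at FDR below 0.01, 2.69% at FDR below 0.001, 22.6% above a log2 fold change of 1, 1.18% by covered base pairs, 4.12% with the boundary at 40 Mb and 7.60% among islands at or below the median input. The density ratio to the rest of the chromosome (0.0701) was 0.0901, 0.111, 1.17, 0.0475, 0.140 and 0.329 under these settings in the same order. Above a log2 fold change of 1 it rests on 7 peaks against 24, whose density intervals overlap, so that no difference in either direction was detectable there. The ratio to the other autosomes (0.258) was 0.326 at FDR below 0.001, 1.16 above a log2 fold change of 1, 0.527 with the boundary at 40 Mb and 0.340 among islands at or below the median input. With the boundary at 40 Mb, which moves islands of the dense part into the first, the difference in median log2 fold change (0.17) was 0.048 and the input ratio (0.785) was 0.964. The difference in fold was 0.066 among islands at or below the median input, a setting chosen after the data were seen. That setting keeps a larger share of the islands before the boundary than beyond it, which by itself raises the share and the density ratio to the rest. Of the 31 peaks, there were 2 above a log2 fold change of 1.5 and 1 when a counting interval wholly above 1 was asked for. Where no cause is given, the cause was not tested. The other 26 values recomputed stayed within the interval of the main value or within 1.5 times its count. Among them were those with the boundary at 30 Mb, with islands less than 1 kb apart merged and with GRCh38 chromosome lengths. For the medians, which are not counts, the interval was 0.12 to 0.25 (difference in fold) and 0.747 to 0.802 (input ratio). No paired analysis was possible because only pooled values were given for each island, and none of the libraries could be left out. Depth limits single islands, whose median standard error before the boundary was 0.17 on the log2 scale.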
